A study of Mus musculus with 14 samples.

Results

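Macrophages differentiated in culture from mouse bone marrow precursors were profiled by poly(A) RNA-seq in 5 libraries that the submitters' labels place in batch 1, out of 14 libraries in 3 batches. They were chosen by that label alone, and no measured value was used. The gene lists used below, in contrast, were chosen with earlier results of these data known. Of the 5, 3 came from macrophages given a supernatant for 3.5 h: 1 received the supernatant of mast cell intracellular traps (trap supernatant, replicate 1) and 2 received mast cell supernatant (replicates 1 and 4). The other 2 came from untreated macrophages (replicates 1 and 4). Every group was wild type. No comparison made here sets a supernatant apart from the medium that carried it, so each difference from untreated cells includes any effect of that medium. The sample titles call these traps intracellular and do not describe them further. The sources used here do not state the amount of supernatant, its preparation or whether libraries came from separate cultures or animals. The p-values therefore reflect how far these 5 libraries scatter, which could be technical scatter. The comparison asks what changed in macrophages after contact with either supernatant within 1 batch.

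Macrophages carry receptors for microbial products, cytokines, nucleotides and lipid mediators. Their engagement activates the MAP kinases and NF-kB, a transcription factor held in the cytoplasm by inhibitor proteins of the IkB family. Immediate early genes such as the Fos, Egr and Nr4a families are transcribed within minutes, and chemokine and cytokine genes follow. The same pathways switch on their own brakes, among them IkB alpha (Nfkbia), A20 (Tnfaip3), MAP kinase phosphatases and mRNA decay proteins. Type I interferon signalling is a separate arm, in which transcription factors bind interferon-stimulated response elements.

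Total counts were 14332124 with trap supernatant, 13971411 and 12029866 with mast cell supernatant, and 20275640 and 22720419 in untreated cells, so the untreated libraries were the deeper ones. Mitochondrially encoded transcripts took 1.62% to 1.67% of counts with supernatant and 1.44% to 1.49% in untreated cells, a difference whose part in the results was not tested. The labelled cell type was checked against its markers: all 28 genes of the macrophage list passed the filter on low counts, with a summed level of 37361 to 39697 CPM (counts scaled to a library total of 1000000) with supernatant and 36599 to 37139 CPM in untreated cells. The CPM use edgeR's TMM factors over the batch 1 libraries. No pair of libraries was identical, and the chi-square per degree of freedom over genes was 23.9 to 36.1 between supernatant and untreated libraries, 5.11 to 8.20 among the 3 supernatant libraries and 1.77 between the 2 untreated libraries.

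The upstream sequences of 5 genes are shown as examples. The first 3 come from known NF-kB targets that rose with supernatant (Cxcl1, Cxcl2, Nfkbia). The last 2 come from genes that were higher with trap than with mast cell supernatant (Rsad2, Ifit3b). Each is the 200 bases before the RefSeq start on GRCm38.p6, read 5′ to 3′ on the gene's strand. Capitals mark matches, on either strand, to the NF-kB pattern GGNNTTTCC in the first 3 and to the interferon-stimulated response element pattern GAAANNGAA in the last 2. The genes shown were picked from those holding a match.
Cxcl1 promoter, chr5:90891045-90891244, plus strand: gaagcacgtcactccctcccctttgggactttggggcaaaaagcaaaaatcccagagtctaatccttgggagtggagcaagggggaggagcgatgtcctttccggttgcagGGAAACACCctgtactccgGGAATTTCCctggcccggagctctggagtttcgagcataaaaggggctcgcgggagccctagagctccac
Cxcl2 promoter, chr5:90903699-90903898, plus strand: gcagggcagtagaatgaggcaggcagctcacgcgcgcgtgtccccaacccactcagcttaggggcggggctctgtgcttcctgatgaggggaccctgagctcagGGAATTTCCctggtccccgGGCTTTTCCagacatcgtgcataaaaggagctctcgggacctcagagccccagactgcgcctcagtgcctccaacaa
Nfkbia promoter, chr12:55492648-55492847, minus strand: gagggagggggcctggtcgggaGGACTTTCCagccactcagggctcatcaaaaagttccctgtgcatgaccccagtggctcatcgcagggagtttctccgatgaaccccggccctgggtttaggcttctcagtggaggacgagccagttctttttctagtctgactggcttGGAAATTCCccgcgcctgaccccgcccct
Rsad2 promoter, chr12:26456453-26456652, minus strand: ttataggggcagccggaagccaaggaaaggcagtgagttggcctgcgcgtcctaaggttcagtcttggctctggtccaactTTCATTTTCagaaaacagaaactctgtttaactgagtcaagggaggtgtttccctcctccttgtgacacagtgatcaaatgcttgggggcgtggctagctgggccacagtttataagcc
Ifit3b promoter, chr19:34607757-34607956, plus strand: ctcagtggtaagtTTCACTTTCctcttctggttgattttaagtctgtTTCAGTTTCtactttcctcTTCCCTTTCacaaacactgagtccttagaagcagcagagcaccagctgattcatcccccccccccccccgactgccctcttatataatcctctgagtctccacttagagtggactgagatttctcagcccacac
Cxcl1, Cxcl2 and Nfkbia each held 2 NF-kB matches. Their first bases lay at -89 and -70 from the Cxcl1 start, at -96 and -77 from the Cxcl2 start and at -178 and -29 from the Nfkbia start. Rsad2 held 1 response element match at -119, and Ifit3b held 3, at -187, -153 and -134.

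The same letters were counted in the 250 bases before every RefSeq start in the table, which gave 32851 promoters of 27025 genes. The NF-kB pattern was in 7.39% of the 1029 promoters found for 784 of the 1020 genes that rose, in 4.02% of the 746 promoters found for 561 of the 763 genes that fell, in 5.34% of promoters of genes tested and in 4.93% of all promoters. For the cAMP response element TGACGTCA these shares were 4.18%, 1.07%, 2.55% and 1.55%. For the AP-1 pattern TGANTCA they were 6.51%, 4.69%, 4.59% and 6.75%, and no string of letters matched both it and the cAMP response element. A match is a description of letters in a window and not of a bound site.

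After filtering on low counts, 12490 of 47937 genes were tested. With supernatant 1783 genes, or 14.3% of those tested, passed an adjusted p of 0.05 (edgeR quasi-likelihood test with Benjamini-Hochberg adjustment): 1020 rose (8.17%) and 763 fell (6.11%). Counts of rises and falls in the gene lists below are to be read against these shares. The rises were larger than the falls: 190 genes rose at least 2-fold and 34 at least 8-fold, whereas 75 fell at least 2-fold and none at least 8-fold. The median log2 difference was 0.45 among genes that rose and -0.42 among genes that fell, with -0.01 over all genes tested. Only 49 of the rises concerned genes with an untreated mean below 1 CPM. Principal component 1, with 59.4% of the variance, separated the 3 supernatant libraries from both untreated ones, and component 2, with 20.7%, placed trap supernatant at 25.004 and mast cell supernatant at -6.55 and -19.9.

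**Figure D1:**
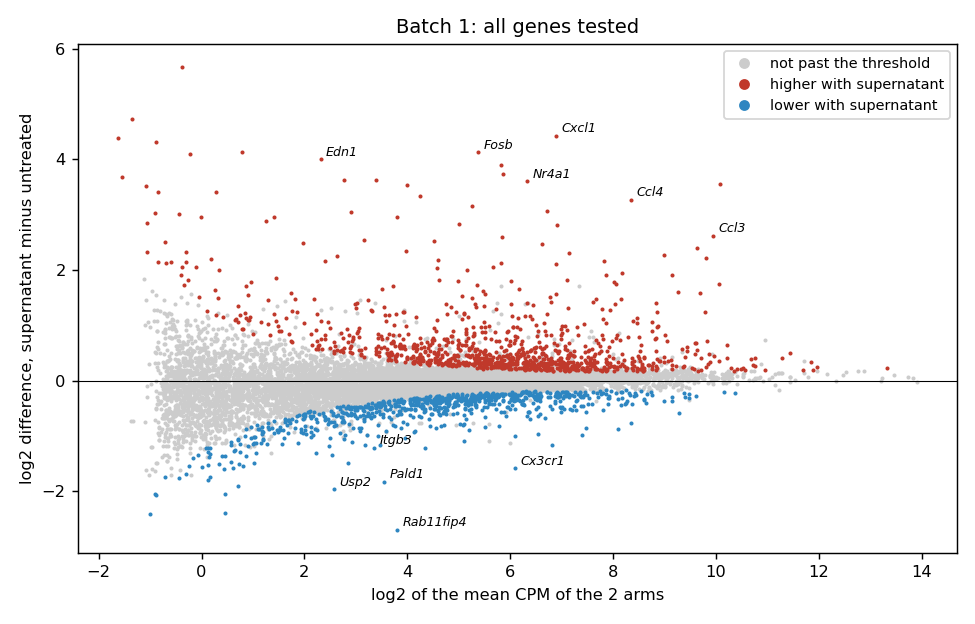
Each point is 1 gene tested in batch 1, with the log2 of the mean CPM of the 2 arms on the x axis and the log2 difference, supernatant minus untreated, on the y axis. Red points are the genes that rose and blue points the genes that fell; 7 genes with no count in both untreated libraries are not drawn. Points reach above 4 for Cxcl1, Fosb and Edn1, while Rab11fip4 is at -2.69.

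Of the largest rises, Bmp2, a bone morphogenetic protein, belonged to none of the lists. It had 14.6 CPM with trap supernatant and 9.41 and 13.6 CPM with mast cell supernatant, against 1.13 and 0.888 CPM in untreated cells, a difference of 3.63 ± 0.25 (SE, adjusted p = 1.87e-07), with every supernatant library several-fold above both untreated ones.

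The number of calls rested on having both untreated libraries, since 602 genes were called without untreated replicate 1 and 646 without untreated replicate 4, and on the spread assumed, since 1012 (7.6% of 13313) were called when the spread was estimated over all 14 libraries. Among 104 genes named by the rule that passed, 66 kept their call whichever library of the batch was left out. Cxcl3, Il1a, Il1b, Ptgs2, Fosb, Zfp36 and Cd83, whose values are given below, lost theirs without either untreated library, with adjusted p of 0.0731 to 0.329.

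Neutrophil-attracting CXC chemokines and CC chemokines were among the genes with the largest rises. Cxcl1, Cxcl2 and Cxcl3 act on CXCR2 of neutrophils, and CC chemokines act on CC chemokine receptors of monocytes and other leukocytes. Of 7 genes in the CXC list, which also holds Cxcl14 and Pf4, 6 were tested. Of these 3 rose and 1 (Cxcl14) fell, with a median log2 difference of 1.44. Of 13 CC chemokine genes 9 were tested, of which 8 rose and none fell, with a median of 1.13.

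Cxcl1, at chr5:90891241-90893115, had 192 CPM with trap supernatant and 208 and 280.4 CPM with mast cell supernatant, against 9.58 and 11.4 CPM in untreated cells. All 3 supernatant libraries lay far above both untreated ones, a log2 difference of 4.43 ± 0.27 (SE, adjusted p = 0.00232). Its neighbour Cxcl2, at chr5:90903871-90905938, had 1676 CPM with trap supernatant and 1801 and 2461 CPM with mast cell supernatant, against 162 and 176 CPM in untreated cells, again with no overlap, and differed by 3.55 ± 0.24 (SE, adjusted p = 0.00319). Such separation was common, as 46.7% of genes tested had CPM that did not overlap between the arms. Cxcl3, at chr5:90786103-90789600, had 10.3 CPM with trap supernatant and 12.5 and 23.2 CPM with mast cell supernatant, against 2.45 and 2.71 CPM in untreated cells, so that 1 mast cell supernatant library stood well above the other 2 supernatant libraries. Its log2 difference was 2.54 ± 0.49 (SE, adjusted p = 0.0441). Cxcl14, a chemokine made by many resting tissues, fell, with 36.9 CPM with trap supernatant and 38.2 and 45.5 CPM with mast cell supernatant, against 52.7 and 49.2 CPM in untreated cells. Pf4, platelet factor 4, and Ppbp did not pass the test at log2 differences of 0.20 and 0.34, and Cxcl5 was not tested for lack of counts.

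Ccl2, which recruits CCR2-bearing monocytes, had 223 CPM with trap supernatant and 194 and 214 CPM with mast cell supernatant, against 29.8 and 29.7 CPM in untreated cells, and the 2 arms were each tight. Its log2 difference was 2.82 ± 0.07 (SE, adjusted p = 4.82e-12), and with the spread of all 14 libraries its adjusted p was 0.0536. Ccl7, which shares the receptor CCR2, had 110.2 CPM with trap supernatant and 91.9 and 117 CPM with mast cell supernatant, against 6.700 and 7.44 CPM in untreated cells, a difference of 3.90 ± 0.12 (SE, adjusted p = 1.08e-09). Ccl3 and Ccl4, which encode the macrophage inflammatory proteins, lie close together in the genome and rose together. Ccl3 had 1583 CPM with trap supernatant and 1459 and 2018 CPM with mast cell supernatant, against 267 and 282 CPM in untreated cells, with a log2 difference of 2.62. Ccl4 had 562 CPM with trap supernatant and 513 and 702 CPM with mast cell supernatant, against 56.8 and 65.9 CPM in untreated cells, with a log2 difference of 3.27. Smaller rises were seen for Ccl5, Ccl22, Ccl9 and Ccl6, whose log2 differences were 1.05, 0.78, 0.50 and 0.35 (adjusted p of 7e-05 to 0.00787). Ccl12 did not pass (adjusted p = 0.129), and Ccl8, Ccl17, Ccl20 and Ccl24 had too few counts to be tested.

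**Figure D2:**
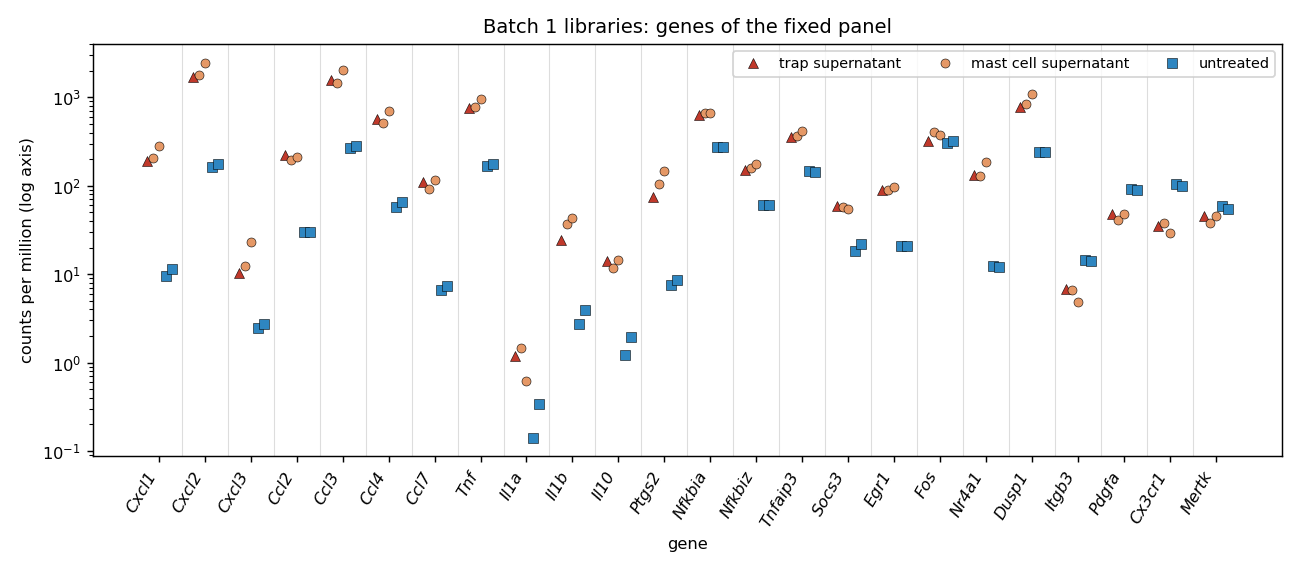
CPM (log axis) of 24 genes of a fixed panel in each batch 1 library: triangles are trap supernatant (n = 1), circles mast cell supernatant (n = 2) and squares untreated cells (n = 2). From Cxcl1 to Dusp1 all supernatant points lie above both untreated points, by little for Fos, which did not pass the test; from Itgb3 to Mertk all lie below.

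Cytokine genes rose with 12 of the 17 tested of 23 listed, none fell, and the median log2 difference was 1.28. Tnf, the gene for tumour necrosis factor, had 759.6 CPM with trap supernatant and 787 and 968 CPM with mast cell supernatant, against 168 and 177 CPM in untreated cells, a difference of 2.28 ± 0.11 (SE, adjusted p = 3.05e-06). Il1b, the precursor of interleukin-1 beta, had 24.1 CPM with trap supernatant and 36.5 and 42.7 CPM with mast cell supernatant, against 2.74 and 3.93 CPM in untreated cells, so that trap supernatant gave the lowest of the 3 treated values. Its difference was 3.35 ± 0.38 (SE, adjusted p = 0.011). Osm, oncostatin M of the interleukin-6 family, had 71.1 CPM with trap supernatant and 56.2 and 78.4 CPM with mast cell supernatant, against 6.79 and 8.502 CPM in untreated cells, with a difference of 3.16 ± 0.18 (SE, adjusted p = 4.6e-05). Lif, of the same family, had 2.12 CPM with trap supernatant and 1.53 and 1.67 CPM with mast cell supernatant, against 0.189 and 0.254 CPM in untreated cells and rose as well (adjusted p = 0.000335). Il1a stayed near the limit of detection in all libraries, with 1.203 CPM with trap supernatant and 1.46 and 0.615 CPM with mast cell supernatant, against 0.142 and 0.338 CPM in untreated cells (adjusted p = 0.0162). Csf2, the gene for GM-CSF, had 40 counts over the 3 supernatant libraries and 2 over the untreated ones, a ratio of 22.9 with an exact 95% binomial interval of 5.93 to 195 that covers counting error only.

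Csf1, Tnfsf9, Hbegf, Il27, Il15 and Inhba made up the other rises of the list, at log2 differences of 1.28, 2.04, 1.53, 1.13, 0.62 and 1.26. Hbegf encodes a ligand of the EGF receptor, and Tnfsf9 the ligand of 4-1BB, a costimulatory receptor of T cells. Il18 and Ebi3 did not pass (adjusted p = 0.724 and 0.135). Il6 had 5 counts over the supernatant libraries and 2 over the untreated ones, which was too few to test, and Il12a, Il33 and Csf3 had no counts in any of the 5 libraries. For a gene with no count, 3 counts is the limit that its absence allows.

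Genes that restrain inflammation rose at the same time. Of 18 anti-inflammatory and feedback genes 17 were tested, 10 rose and 2 fell, with a median log2 difference of 0.82. Il10, the deactivating cytokine of macrophages, had 14.1 CPM with trap supernatant and 11.7 and 14.3 CPM with mast cell supernatant, against 1.23 and 1.95 CPM in untreated cells, a difference of 3.06 ± 0.20 (SE, adjusted p = 5.44e-08). Socs3, which blocks signalling by interleukin-6 family receptors, had 58.7 CPM with trap supernatant and 56.9 and 54.5 CPM with mast cell supernatant, against 18.3 and 21.9 CPM in untreated cells, with little spread inside either arm. It differed by 1.496 ± 0.09 (SE, adjusted p = 1.73e-08). Nfil3, Pim1, Socs1, Pim3, Cish, Il1rn and Il10ra also rose, by 1.81, 1.79, 1.48, 1.33, 0.83, 0.82 and 0.54 on the log2 scale. Tnfrsf1b and Sbno2 fell, with log2 differences of -0.28 and -0.30, and Tgfb1, Il10rb and Irak3 differed by no more than 0.08. Il1rl1, the receptor for interleukin-33, is on this list and also marks mast cells, and its rise of 1.87 is given with the mast cell transcripts below.

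All 30 genes of the NF-kB list were tested, of which 22 rose and 1 fell, with a median of 0.42. Among inhibitors, Nfkbia had 626 CPM with trap supernatant and 673 and 656 CPM with mast cell supernatant, against 272 and 276 CPM in untreated cells, a difference of 1.25 ± 0.06 (SE, adjusted p = 2.35e-09). Nfkbiz had 152 CPM with trap supernatant and 158 and 176 CPM with mast cell supernatant, against 60.2 and 60.020 CPM in untreated cells, and Nfkbid had 181 CPM with trap supernatant and 147 and 158 CPM with mast cell supernatant, against 58.031 and 55.9 CPM in untreated cells. Their log2 differences were 1.43 and 1.51, and the classical inhibitors Nfkbib and Nfkbie rose by 0.63 and 0.49. Tnfaip3, which encodes the ubiquitin-editing brake A20, had 356 CPM with trap supernatant and 366 and 415 CPM with mast cell supernatant, against 145 and 143 CPM in untreated cells, a difference of 1.40 ± 0.07 (SE, adjusted p = 4.93e-09).

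The subunits themselves moved less, apart from Rel. Rel, the gene for c-Rel, had 309.8 CPM with trap supernatant and 289 and 339.6 CPM with mast cell supernatant, against 129.8 and 125 CPM in untreated cells, a difference of 1.30 ± 0.07 (SE, adjusted p = 9.41e-09). Relb, Nfkb2 and Rela rose by 0.36, 0.27 and 0.25 on the log2 scale, and Nfkb1 did not pass the test (0.09, adjusted p = 0.511). Targets with larger rises were Tnip3, Clec4e, Ripk2, Marcksl1 and Cflar, at 0.99, 0.84, 0.82, 0.80 and 0.77. Icam1 and Sod2, both usual NF-kB targets, did not pass (adjusted p = 0.16 and 0.111). Gpr84, a receptor for medium-chain fatty acids, was the member that fell, with 71.3 CPM with trap supernatant and 71.6 and 77.3 CPM with mast cell supernatant, against 115 and 113 CPM in untreated cells.

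Immediate early transcription factors were raised as a group 3.5 h after treatment: 22 of 27 rose, none fell and the median log2 difference was 1.14. The AP-1 subunit Fosb had 52.2 CPM with trap supernatant and 84.6 and 98.4 CPM with mast cell supernatant, against 5.05 and 3.89 CPM in untreated cells, the lowest treated value being that of trap supernatant. It differed by 4.13 ± 0.46 (SE, adjusted p = 0.0205). Fos, in contrast, had 319.9 CPM with trap supernatant and 405 and 376 CPM with mast cell supernatant, against 305 and 318 CPM in untreated cells and did not pass (adjusted p = 0.101). Junb had 1075 CPM with trap supernatant and 1153 and 1491 CPM with mast cell supernatant, against 518 and 529 CPM in untreated cells, a difference of 1.24 ± 0.16 (SE, adjusted p = 0.00807), and Jun rose by 1.05. Egr1, a zinc finger factor induced by ERK signalling, had 89.5 CPM with trap supernatant and 88.6 and 96.8 CPM with mast cell supernatant, against 21.1 and 20.9 CPM in untreated cells, a difference of 2.12 ± 0.07 (SE, adjusted p = 1.63e-10). Egr3 had 27.8 CPM with trap supernatant and 32.6 and 27.3 CPM with mast cell supernatant, against 1.93 and 3.05 CPM in untreated cells, and Egr2 rose by 1.14.

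The orphan nuclear receptors of the Nr4a family rose together. Nr4a1 had 131 CPM with trap supernatant and 128 and 184 CPM with mast cell supernatant, against 12.2 and 11.970 CPM in untreated cells, a difference of 3.61 ± 0.24 (SE, adjusted p = 0.00186). Nr4a2 had 20.1 CPM with trap supernatant and 15.2 and 22.9 CPM with mast cell supernatant, against 1.37 and 1.73 CPM in untreated cells, a difference of 3.62 ± 0.21 (SE, adjusted p = 1.01e-07). Nr4a3 had 209.5 CPM with trap supernatant and 122 and 167 CPM with mast cell supernatant, against 31.2 and 28.6 CPM in untreated cells, with trap supernatant highest, a difference of 2.47 ± 0.32 (SE, adjusted p = 0.028). Csrnp1, Ier3, Klf4, Maff, Klf6, Klf2 and Mafk rose by 3.07, 2.83, 1.81, 1.67, 1.40, 1.20 and 1.12 on the log2 scale. Atf3, Jund, Bhlhe40 and Srf did not pass, at 0.48, 0.43, 0.80 and -0.20.

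Phosphatases and Sprouty proteins that limit MAP kinase signalling rose in 9 of 12 genes tested, with none lower. Dusp1 had 773 CPM with trap supernatant and 849.5 and 1077 CPM with mast cell supernatant, against 241 and 239.8 CPM in untreated cells, a difference of 1.91 ± 0.16 (SE, adjusted p = 0.00184). Dusp2 had 49.8 CPM with trap supernatant and 42.6 and 55.5 CPM with mast cell supernatant, against 13.3 and 14.8 CPM in untreated cells, a difference of 1.81 ± 0.11 (SE, adjusted p = 1.36e-07). Spry1, an inhibitor of receptor tyrosine kinase signalling, had 5.66 CPM with trap supernatant and 3.94 and 4.48 CPM with mast cell supernatant, against 0.425 and 0.761 CPM in untreated cells, with all treated values above both untreated ones. Dusp6, which follows sustained ERK activity, did not pass, with a log2 difference of -0.12.

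mRNA decay and growth arrest genes rose in 10 of 13 tested. Zfp36, the gene for tristetraprolin, which marks cytokine mRNAs for decay, had 1050.5 CPM with trap supernatant and 1254 and 1676 CPM with mast cell supernatant, against 246 and 258 CPM in untreated cells, a difference of 2.39 ± 0.27 (SE, adjusted p = 0.0176). Zfp36l1 and Zc3h12c, of related function, rose by 1.58 and 1.17. Ppp1r15a, a subunit of the phosphatase that reverses translational arrest, Gadd45b and Gadd45g rose by 1.82, 1.74 and 1.25. Zc3h12a, the gene for the nuclease Regnase-1, did not pass (0.10).

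Targets of cAMP and CREB rose in 10 of 19 tested and 1 fell. Rgs1, which dampens chemokine receptor signalling, had 1336 CPM with trap supernatant and 1309 and 1787 CPM with mast cell supernatant, against 308 and 325 CPM in untreated cells, a difference of 2.22 ± 0.17 (SE, adjusted p = 0.00166). Thbs1, Odc1 and Per1 rose by 1.62, 1.47 and 1.14, whereas Crem, an early cAMP target, did not pass (0.19) and Pde4a fell, at -0.55. Hdc, counted in this list for its histamine synthesis, is also a mast cell gene. Among 18 prostaglandin and leukotriene genes tested 5 rose: Ptgs2, the inducible cyclooxygenase, had 73.7 CPM with trap supernatant and 105 and 146 CPM with mast cell supernatant, against 7.55 and 8.59 CPM in untreated cells, the trap value being the lowest treated one, and a difference of 3.74 ± 0.45 (SE, adjusted p = 0.0262). The others, Cysltr1, Ptgir, Pla2g4a and Ptger2, rose by 0.70, 0.64, 0.64 and 0.54.

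Glucocorticoid targets rose in 6 of 14 and fell in 2. Those that rose included Dusp1, Per1 and Nfkbia, which other lists also hold, and Tsc22d3 at 0.72, while Fkbp5, a standard glucocorticoid target, fell, at -0.85. Of the circadian genes tested, 5 of 18 rose and 3 fell. Nr1d1 and Per2 rose by 1.01 and 0.62, and Usp2, a clock-controlled deubiquitinase, had 2.76 CPM with trap supernatant and 1.97 and 2.55 CPM with mast cell supernatant, against 10.002 and 8.97 CPM in untreated cells, a difference of -1.96 ± 0.18 (SE, adjusted p = 2.2e-06).

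Among stress genes, chaperones rose in 8 of 15 and none fell. Hspa1a, the inducible HSP70, had 81.6 CPM with trap supernatant and 76.5 and 87.6 CPM with mast cell supernatant, against 18.9 and 20.4 CPM in untreated cells, a difference of 2.06 ± 0.08 (SE, adjusted p = 6.86e-10). Hspa1b had 59.4 CPM with trap supernatant and 51.9 and 62.8 CPM with mast cell supernatant, against 22.033 and 23.6 CPM in untreated cells, and since it is nearly identical to Hspa1a the division of reads between them is uncertain. Unfolded protein and ATF4 genes rose in 6 of 23, with Chac1, Atf4 and Ddit3 at 1.03, 0.71 and 0.63. Antioxidant and iron genes rose in 3 of 20 (15%, with 8.17% over all genes) and fell in 1 (5%, with 6.11% over all genes). Lcn2, whose protein binds iron-loaded siderophores, was among the rises at 0.82.

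Pattern recognition genes rose in 7 of 23 (30.4%, with 8.17% over all genes) and fell in 1 (4.35%, with 6.11% over all genes). Cd14, a co-receptor for lipopolysaccharide, had 883 CPM with trap supernatant and 953 and 1025 CPM with mast cell supernatant, against 596 and 596 CPM in untreated cells, and Nod2 and Tlr4 rose by 0.83 and 0.33. Inflammasome and cell death genes rose in 2 of 15 (13.3%, with 8.17% over all genes), and these were Nlrp3 and Casp4. Nlrp3 had 272 CPM with trap supernatant and 291 and 356 CPM with mast cell supernatant, against 141 and 141 CPM in untreated cells. Casp4 rose by 0.59. Costimulation and adhesion genes rose in 8 of 18 and fell in 3, the falls being integrin chains (Itgb3, Itgav and Itga5). Cd83, a marker of activated antigen-presenting cells, had 360.1 CPM with trap supernatant and 373 and 526 CPM with mast cell supernatant, against 149 and 153 CPM in untreated cells, a difference of 1.47 ± 0.22 (SE, adjusted p = 0.0286), and Vcam1, Cd86 and Cd80 rose by 1.06, 0.60 and 0.57.

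**Figure D3:**
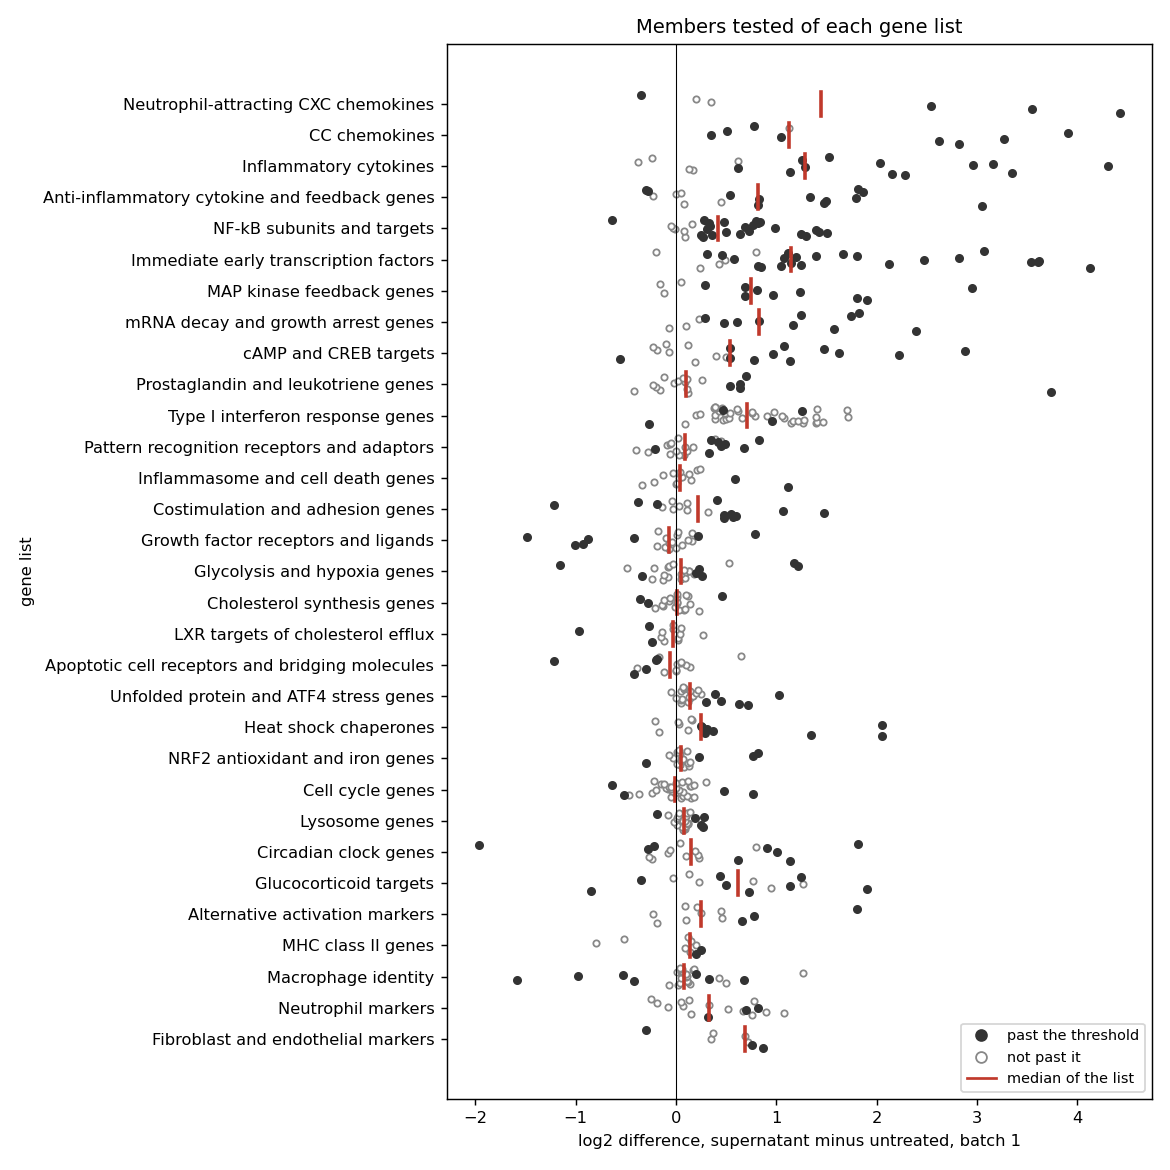
Log2 difference, supernatant minus untreated in batch 1, of each tested member of 31 gene lists with 5 or more tested members. The mast cell list (14 tested, median 3.91) is left out. Filled points passed the threshold, open points did not, and red bars are list medians. Chemokines, cytokines and immediate early genes have medians of 1.13 to 1.44, whereas those of the lysosome, cell cycle and cholesterol lists lie within 0.09 of 0; Ifnb1, which had no untreated count, is not drawn.

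Falls were smaller than rises. Rab11fip4, at chr11:79591212-79698023, an effector of the recycling GTPase Rab11, had 4.88 CPM with trap supernatant and 2.77 and 3.52 CPM with mast cell supernatant, against 23.4 and 25.040 CPM in untreated cells, the largest fall among genes of at least 5 CPM at -2.69 ± 0.16 (SE, adjusted p = 3.6e-08). Cx3cr1, the fractalkine receptor of tissue macrophages and monocytes, had 35.3 CPM with trap supernatant and 37.5 and 29.5 CPM with mast cell supernatant, against 106 and 99.2 CPM in untreated cells, a difference of -1.58 ± 0.09 (SE, adjusted p = 1.73e-08). Itgb3, the integrin beta 3 chain, had 6.72 CPM with trap supernatant and 6.71 and 4.84 CPM with mast cell supernatant, against 14.6 and 13.9 CPM in untreated cells, a difference of -1.21 ± 0.14 (SE, adjusted p = 3.17e-05). Cspg4, the proteoglycan NG2, and Pdlim7, an actin-associated LIM protein, fell, at log2 differences of -1.49 and -1.22. Pald1, Spsb1 and Ankrd37 stood at -1.83, -1.31 and -1.16, and the long noncoding RNAs AI480526 and AU020206 at -1.35 and -1.16. Gm16238, a processed pseudogene whose reads its parent gene may share, had 1.77 CPM with trap supernatant and 4.45 and 4.13 CPM with mast cell supernatant, against 7.83 and 7.57 CPM in untreated cells.

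Growth factor receptors and ligands were lower in 5 of 21 (23.8%, with 6.11% over all genes) and higher in 2 (9.52%, near the 8.17% over all genes). Pdgfa, a platelet-derived growth factor chain, had 47.3 CPM with trap supernatant and 40.8 and 48.006 CPM with mast cell supernatant, against 92.8 and 89.1 CPM in untreated cells, a difference of -1.004 ± 0.07 (SE, adjusted p = 2.48e-07). Tgfbr1, a receptor of transforming growth factor beta, had 223 CPM with trap supernatant and 179 and 173 CPM with mast cell supernatant, against 367 and 339 CPM in untreated cells, a difference of -0.88 ± 0.11 (SE, adjusted p = 0.00172), and Pdgfc and Tgfbi fell as well, at -0.93 and -0.42. Metrnl was the larger of the 2 rises, 0.79, with Nrp1 at 0.22. Of 16 apoptotic cell receptors and bridging molecules tested 5 fell and none rose. Mertk, the receptor that binds apoptotic cells through Gas6 and protein S, had 45.8 CPM with trap supernatant and 37.6 and 45.016 CPM with mast cell supernatant, against 59.4 and 55.3 CPM in untreated cells, a small log2 difference of -0.42 ± 0.08 (SE, adjusted p = 0.00335), and Itgav, Itgb5 and Stab1 fell too, at -0.19, -0.20 and -0.30. Without untreated replicate 1 there was 1 fall in this list, and without untreated replicate 4 there were 2.

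Of the macrophage identity genes 3 of 28 rose and 4 fell, with 21 past neither way and a median of 0.08. Cebpa, the myeloid transcription factor, had 117 CPM with trap supernatant and 113 and 109 CPM with mast cell supernatant, against 229 and 216 CPM in untreated cells, a difference of -0.98 ± 0.06 (SE, adjusted p = 1.73e-08). Irf8, which directs monocyte and macrophage fate, had 125 CPM with trap supernatant and 119.5 and 116 CPM with mast cell supernatant, against 179.7 and 168 CPM in untreated cells, a difference of -0.53 ± 0.06 (SE, adjusted p = 1.71e-05). In LXR targets of cholesterol efflux 3 of 13 fell and none rose, with Scd2 at -0.96 and Abca1 at -0.24. Cholesterol synthesis had 1 higher and 2 lower of 21, and glycolysis and hypoxia genes 5 higher and 2 lower of 25, with Ndrg1 and Acod1, the itaconate-forming enzyme, at 1.21 and 1.18. Cell cycle genes had 2 higher and 2 lower of 34, lysosome genes 4 higher and 1 lower of 26, MHC class II genes 2 higher of 9 and alternative activation markers 3 higher of 11. The shares of the cell cycle list, 5.88% each way, lie near the 8.17% and 6.11% seen over all genes, whereas 15.4% of lysosome genes rose and 14.3% of identity genes fell. Rises and falls made up 4.76% and 9.52% of cholesterol synthesis genes and 20% and 8% of glycolysis and hypoxia genes. Falls made up 23.1% of LXR targets, and rises 22.2% of MHC class II genes and 27.3% of alternative activation markers.

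Counts in many lists were over 1.5 times smaller with 1 untreated library fewer. Without untreated replicate 1 and without untreated replicate 4 the rises numbered 3 and 2 for chaperones, 4 and 3 for pattern recognition, 3 and 5 for costimulation, 3 and 3 for prostaglandin genes, 2 and 2 for circadian and for glycolysis and hypoxia genes, and 0 and 0 for lysosome and MHC class II genes. They numbered 4 and 3 for unfolded protein genes, and 1 and 1 each for antioxidant and iron, growth factor and macrophage identity genes. No fall was called in the CXC list (Cxcl14 in the full comparison) under either omission or with the spread of all 14 libraries, nor in the NF-kB list (Gpr84) with that spread. Falls numbered 1 and 1 each for LXR targets and circadian genes and for glycolysis and hypoxia genes, 4 and 3 for growth factor genes, and 0 and 0 for cholesterol synthesis, cell cycle and anti-inflammatory genes. Under the same omissions the rises numbered 16 and 17 in the NF-kB list, 19 and 18 of the immediate early factors, 8 and 8 cytokines, 7 and 7 CC chemokines and 2 and 2 CXC chemokines.

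Transcripts typical of mast cells appeared in every supernatant library. Of 26 mast cell markers 14 were tested and 10 rose, and with the spread of all 14 libraries none of 22 tested did. Markers without an untreated count could pass the filter on low counts only through the supernatant libraries. The share of rises among the tested markers is therefore partly fixed by the filter. The summed level of the list was 92.6, 87.1 and 113.5 CPM with supernatant and 15.003 and 13.9 CPM in untreated cells, and 13 of the 26 had no count in either untreated library. Tpsb2, the gene for a mast cell tryptase, had 19.7 CPM with trap supernatant and 19.9 and 27.959 CPM with mast cell supernatant, against 0 and 0 CPM in untreated cells, and it was at least 331-fold higher against the limit of 3 counts over the untreated libraries. Mcpt4 and Cma1, mast cell chymase genes, were at least 255-fold and 231-fold higher, and Cpa3, carboxypeptidase A3, at least 178-fold higher (adjusted p of 1.65e-09 to 2.99e-07 over the 4). With that wider spread the adjusted p of these 4 was 0.159 to 0.207. Fcer1a, the ligand-binding chain of the IgE receptor, had 59 counts over the supernatant libraries and 1 over the untreated ones, a ratio of 67.5 with an exact 95% binomial interval of 11.6 to 2710. Slc18a2, the monoamine transporter that loads histamine into granules, had 26 counts over the supernatant libraries and 2 over the untreated ones, a ratio of 14.9 (3.72 to 129). Reads of Tpsb2 and its near copy Tpsab1 may be divided unevenly between them.

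Kit, the stem cell factor receptor, had 3.18 CPM with trap supernatant and 3.14 and 3.52 CPM with mast cell supernatant, against 0.189 and 0.169 CPM in untreated cells. Hdc, histidine decarboxylase, had 3.26 CPM with trap supernatant and 4.38 and 5.01 CPM with mast cell supernatant, against 0.849 and 0.296 CPM in untreated cells. Il1rl1 had 4.32 CPM with trap supernatant and 3.57 and 4.92 CPM with mast cell supernatant, against 1.18 and 1.14 CPM in untreated cells, so that its untreated level was not 0. In bulk RNA, fewer cells of a type and less RNA per cell cannot be told apart, and RNA carried over in a supernatant cannot be told apart from RNA made by the macrophages. The part of mast cell RNA in the rises of other genes was not tested.

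For other cell types the summed levels differed less between the arms than for mast cells. Neutrophil markers summed to 213.4 to 264.1 CPM with supernatant and 200.5 to 203.1 CPM in untreated cells, and 3 of 17 rose (S100a8, Ltf and Lcn2), against 1 without untreated replicate 1 and none without untreated replicate 4. Fibroblast and endothelial markers, at 153.1 to 165.1 CPM with supernatant and 174.3 to 176.7 CPM in untreated cells, had 2 of 7 higher (Col1a1 and Col1a2) and 1 lower (Vwf). Without untreated replicate 1, or with the spread of all 14 libraries, none of these 3 calls was left in the list, and without untreated replicate 4 there was 1 rise. Dendritic cell, lymphocyte and erythroid and platelet markers had 3 genes tested in each list and none passed.

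The 2 supernatants were compared within the batch, where trap supernatant has a single library that is assumed to vary like the others. Against mast cell supernatant 92 genes were higher and 42 lower with trap supernatant, which is 0.737% and 0.336% of genes tested (1.07% in all). The difference was largest for interferon-stimulated genes: of 44 type I interferon response genes tested, 19 were higher with trap supernatant and none lower, with a median log2 difference of 0.75 against -0.00288 over all genes. With the spread of all 14 libraries 8 were higher, and over the other alternatives 19 to 36.

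Rsad2, the gene for the antiviral enzyme viperin, had 488 CPM with trap supernatant and 128 and 129 CPM with mast cell supernatant, against 70.4 and 80.7 CPM in untreated cells. Trap supernatant thus stood above both mast cell libraries, which were themselves above the untreated ones, and the trap minus mast log2 difference was 1.93 ± 0.07 (SE, adjusted p = 2.23e-12). Mx2, an antiviral GTPase, had 41.9 CPM with trap supernatant and 11.6 and 11.2 CPM with mast cell supernatant, against 8.35 and 9.69 CPM in untreated cells, with a difference of 1.88 ± 0.13 (SE, adjusted p = 1.42e-08). Ifi208, a member of the HIN-200 family, had 8.92 CPM with trap supernatant and 1.61 and 1.23 CPM with mast cell supernatant, against 1.79 and 1.396 CPM in untreated cells, so that the mast cell libraries were at the level of untreated cells, and it differed by 2.63 ± 0.29 (SE, adjusted p = 1.25e-05). Ifit3b, which is so like Ifit3 that reads may be shared, had 24.5 CPM with trap supernatant and 7.44 and 5.19 CPM with mast cell supernatant, against 3.96 and 5.16 CPM in untreated cells, with a difference of 1.94 ± 0.19 (SE, adjusted p = 6.49e-06). Cxcl10, a chemokine for CXCR3-bearing lymphocytes, was singled out after its values were seen and had 164 CPM with trap supernatant and 48.005 and 48.973 CPM with mast cell supernatant, against 24.2 and 29.4 CPM in untreated cells, with a difference of 1.76 ± 0.09 (SE, adjusted p = 6.27e-10). Ifit3b and Cxcl10 did not pass with the spread of all 14 libraries (adjusted p = 0.371 and 0.218).

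With both supernatants pooled against untreated cells, 4 of the 44 interferon genes rose (9.09%, near the 8.17% over all genes), namely Ifnb1, Ifi205, Isg20 and Gbp2, and Ifnar1 fell, while the median log2 difference of the list was 0.71, with -0.01 over all genes. In the pooled arm any difference between the supernatants counts as spread, which makes a call harder for genes that differ between them. Against untreated cells the list median was 1.07 for trap supernatant alone (1 library) and 0.389 for mast cell supernatant alone. The number of rises depended on which libraries and genes entered: 1 without untreated replicate 1, 6 without untreated replicate 4, 9 without the trap library, 13 without mast cell replicate 4, 9 with DESeq2 and 12 with no filter on low counts. Ifnb1, interferon beta itself, had 34 counts over the 3 supernatant libraries and none in untreated cells, at least 13-fold higher, with 1.203 CPM with trap supernatant and 0.511 and 0.879 CPM with mast cell supernatant. Irf7 showed another pattern, with 125 CPM with trap supernatant and 126 and 57.8 CPM with mast cell supernatant, against 50.4 and 69.2 CPM in untreated cells, so that 1 mast cell library matched trap supernatant. The response element pattern shown above was in 32.7% of the 101 promoters found for 74 of the 92 genes higher with trap supernatant, and in 6.31% of promoters of genes tested.

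Fosb and Il1b were lower with trap than with mast cell supernatant, at log2 differences of -0.81 ± 0.11 (SE) for Fosb and -0.71 ± 0.14 (SE) for Il1b. Neither was followed under the other settings. In batch 2 the trap value was also the lower one. In batch 3 it was the higher one, at 6.342 CPM against 0.8538 and 1.328 for Fosb and 4.736 CPM against 2.562 and 2.906 for Il1b. The 4 genes of at least 5 CPM that fell furthest below mast cell supernatant in batch 1, Gm7079, Gm15710, Gm11942 and Rps10-ps1, are processed pseudogenes whose reads may belong to their parent genes. They differed by -1.86, -1.79, -1.47 and -1.45. With the spread of all 14 libraries Gm15710, Gm11942 and Rps10-ps1 did not pass (adjusted p = 0.419, 0.853 and 0.239), nor did Gm11942 and Rps10-ps1 with DESeq2 (0.0736 and 0.0912). Gm11942 also missed the threshold with limma-voom and after thinning (0.0516 and 0.0502). Pseudogenes made up 50% of the 42 lower genes, 4.35% of the 92 higher genes and 4.2% of genes tested. With mast cell replicate 1 or 4 left out, each supernatant had 1 library and the spread rested on the 2 untreated libraries alone. More genes than 134 then differed, and that number carries this limit, as does the upper end of the interferon range given above.

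**Figure D4:**
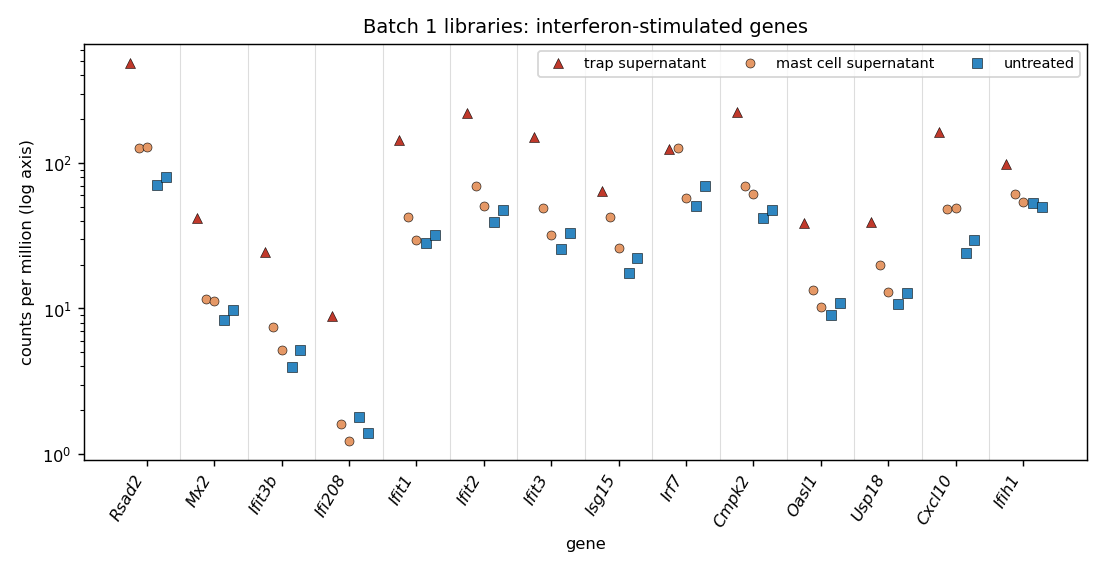
CPM (log axis) of 14 interferon-stimulated genes in each batch 1 library: triangles are trap supernatant (n = 1), circles mast cell supernatant (n = 2) and squares untreated cells (n = 2). For Rsad2, Mx2, Ifit3b, Ifi208 and Cxcl10 the trap library is above all others, whereas for Irf7 it is close to 1 mast cell library.

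The response of batch 1 was then set against that of the other batches in 1 fit over all 14 libraries, where batch 2 has 1 trap, 1 mast cell and 2 untreated libraries and batch 3 has 1 trap, 2 mast cell and 2 untreated libraries. No library is shared between batches. The sources used here do not say what a batch stands for (day, culture or animal). The response differed between batch 1 and batch 2 in 91 of 13313 genes, or 0.684%, and was more positive in batch 1 in 85 of them (0.638%). Between batch 1 and batch 3 it differed in 1121 genes, or 8.42%, with 829 more positive in batch 1 (6.23%) and 292 more negative (2.19%). Both counts rested on single libraries. Against batch 2 there were 10 and 17 genes without untreated replicates 1 and 4 of batch 1 and 55 without mast cell replicate 4. There were 11 and 17 without the 2 untreated libraries of batch 2, 37 without its trap library and 223 without its mast cell library, and 176 and 138 without trap replicate 3 and untreated replicate 3 of batch 3. Against batch 3 there were 501 and 521 without untreated replicates 1 and 4 of batch 1.

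Genes that rose or fell in batch 1 were picked by their batch 1 values. Medians closer to zero in the other batches therefore follow in part from that choice. Genes that rose in batch 1 had median responses of 0.47 in batch 1, 0.11 in batch 2 and -0.13 in batch 3 on the log2 scale. Of the 1020, 71.5% had the same sign in batch 2 and 34.5% in batch 3, where 49.2% and 50.1% of all tested genes had a response above 0. In batch 3, 172 of them passed the threshold in the opposite direction, where 5.2% of genes tested fell and 8.26% passed in either direction, and 12 passed with a rise in all 3 batches. Genes that fell in batch 1 had the same sign in 78.5% of cases in batch 2 and 59.2% in batch 3. Their medians were -0.41, -0.15 and -0.06, and 39 passed with a fall in all 3 batches. Over all genes of this fit, 4.92%, 0.473% and 3.06% passed with a rise in batches 1, 2 and 3. With a fall, 2.68%, 0.706% and 5.2% passed. Over 12482 genes the responses of batches 1 and 2 had a Pearson r of 0.474 and those of batches 1 and 3 of 0.212, as a description across genes that share libraries within each batch.

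**Figure D5:**
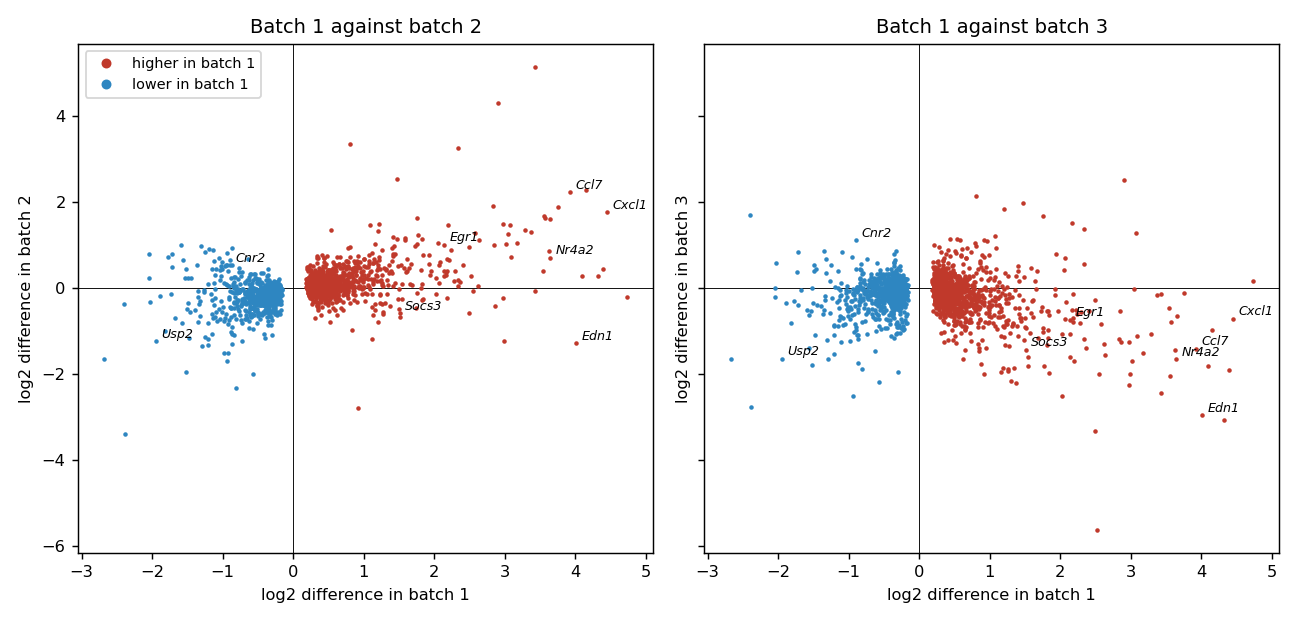
Log2 difference, supernatant minus untreated, in batch 1 (x axis) against batch 2 (left) and batch 3 (right) for 1772 genes that passed in batch 1, red for higher and blue for lower; 11 genes with a fitted value beyond 6 or no untreated count are not drawn. Edn1 is above 4 in batch 1 and below 0 in both other panels, and most red points above 2 on the x axis lie below 0 in the batch 3 panel.

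Edn1, the gene for the vasoconstrictor peptide endothelin 1 at chr13:42301476-42307990, differed most on the positive side in both comparisons. On the scale of all 14 libraries it had 12.8, 8.59 and 8.82 CPM with supernatant and 0.703 and 0.541 CPM in untreated cells of batch 1. In batch 2 it had 0.559 and 0.857 CPM with supernatant and 1.68 and 1.78 CPM in untreated cells, and in batch 3 it had 0.321, 0.0854 and 0.249 CPM with supernatant and 2.04 and 1.49 CPM in untreated cells. It was therefore high with supernatant in batch 1 and low with supernatant in the other batches, where every value was below 2.1 CPM. The response of batch 1 exceeded that of batch 2 by 5.29 ± 0.49 (SE, adjusted p = 5.53e-05) and that of batch 3 by 6.96 ± 0.53 (SE, adjusted p = 2.67e-06).

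Socs3, Arc, Gem, Dusp2 and Gadd45b followed Edn1 among genes that responded more positively in batch 1 than in batch 2. Socs3 had 63.5, 60.9 and 58.8 CPM with supernatant and 19.4 and 23.3 CPM untreated in batch 1, but 20.2 and 21.1 CPM with supernatant and 29.4 and 32.2 CPM untreated in batch 2, a difference of 2.09 ± 0.31 (SE, adjusted p = 0.0118). Arc, a cytoskeletal protein best known from neurons, Gem, a small GTPase, Dusp2 and Gadd45b exceeded their batch 2 responses by 4.22, 2.61, 2.09 and 1.86 on the log2 scale. Of the NF-kB list 9 of 30 genes responded more positively in batch 1 than in batch 2 and 26 more than in batch 3, and of the immediate early list 6 and 23 of 27. Over all genes of this fit the shares were 0.638% against batch 2 and 6.23% against batch 3. Nfkbiz rose in batch 1 with fitted responses of 1.45 there, 0.11 in batch 2 and -0.68 in batch 3, with a difference from batch 2 of 1.33 ± 0.19 (SE, adjusted p = 0.00553).

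Among chemokine genes 3 of 6 CXC and 6 of 9 CC genes responded more positively in batch 1 than in batch 3 (6.23% over all genes), and none passed against batch 2. Trap and mast cell supernatant form 1 arm in this test, so a difference between them counts as spread. In batch 2 they gave 29.75 and 144.9 CPM for Ccl2, but 12.8 and 9.201 CPM for Ccl22. The lack of a call against batch 2 therefore does not show equal responses. Cxcl1 had 208, 223 and 302 CPM with supernatant and 10.2 and 12.1 CPM untreated in batch 1. In batch 2 the values were 19.960 and 58.8 CPM for trap and mast cell supernatant and 11.990 and 11.1 CPM untreated, so that the trap value was nearer to the untreated ones than the mast cell value was. In batch 3 they were 53.2, 19.3 and 20.010 CPM with supernatant and 56.5 and 44.4 CPM untreated, an untreated level above that of batch 1. The response of batch 1 exceeded that of batch 3 by 5.15 ± 0.79 (SE, adjusted p = 0.00563), and that of batch 2 by 2.68 ± 0.87 (SE, adjusted p = 0.302), which did not pass. Ccl7 had 9.55, 3.42 and 2.24 CPM with supernatant and 18.8 and 8.36 CPM untreated in batch 3, and its response in batch 1 exceeded that of batch 3 by 5.32 ± 1.18 (SE, adjusted p = 0.0281). For Nr4a3, Egr3, Nr4a2 and Spry1 batch 1 exceeded batch 3 by 5.81, 5.59, 5.30 and 5.22.

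More negative responses in batch 1 were seen in 6 genes against batch 2, or 0.0451% of genes tested, and in the 292 against batch 3. Cnr2, the cannabinoid receptor of immune cells, had 12.8, 16.5 and 10.2 CPM with supernatant and 24.8 and 24.5 CPM untreated in batch 1, against 30.1, 29.2 and 35.3 CPM with supernatant and 14.7 and 14.3 CPM untreated in batch 3. Supernatant values thus lay below both untreated values in batch 1 and above them in batch 3, and the difference was -1.43 ± 0.23 (SE, adjusted p = 0.00951) from batch 2 and -2.01 ± 0.22 (SE, adjusted p = 4.97e-05) from batch 3. Scd2, a fatty acid desaturase, differed by -1.68 ± 0.28 (SE, adjusted p = 0.00401) from batch 3, with Tfap4, Cdca7, Rab19 and F630028O10Rik at -1.90, -1.72, -1.64 and -1.44. From batch 2, Zfp329, 6430548M08Rik, B430306N03Rik and the noncoding RNA Neat1 differed by -1.22, -0.81, -0.76 and -0.62.

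Several falls and the mast cell transcripts were seen in every batch. Pdgfa had 51.1, 43.6 and 51.8 CPM with supernatant and 98.7 and 94.9 CPM untreated in batch 1, and its fitted responses were -0.99, -1.51 and -1.23 in batches 1, 2 and 3. Itgb3 had -1.20, -1.31 and -1.53, and Cx3cr1 -1.57, -0.82 and -1.38. No difference between batches passed for these 3 genes. The fall of Mertk was smaller in batch 1 than in batch 3, with a difference of 0.70 ± 0.18 (SE, adjusted p = 0.0188). Mcpt4 had 17.7, 16.4 and 21.5 CPM in the supernatant libraries of batch 1, 171 and 334 CPM in those of batch 2 and 470.5, 70.5 and 51.6 CPM in those of batch 3, with no count in untreated cells of any batch. Cpa3 had 12.8, 11.6 and 14.5 CPM with supernatant in batch 1, 105 and 214 CPM in batch 2 and 339, 44.2 and 39.7 CPM in batch 3. Supernatant libraries of batch 1 thus had the highest Cxcl1 and the lowest levels of these 2 mast cell transcripts. These are values side by side, and the relation was not tested.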

How the data were processed

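RNA of 14 mouse macrophage libraries was measured by stranded poly(A) RNA-seq. The authors deposited 1 table of raw counts per gene, which featureCounts 2.0.0 and the GRCm38 build account for per the submitters' processing notes; the sources used here name no aligner or strand setting. Of 47937 gene identifiers 47224 were given a symbol through GENCODE M21 and 713 kept their identifier. No column belonged to another series.

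The analysis used R 4.3.3 with edgeR 4.0.16: filterByExpr, TMM scaling, and a robust quasi-likelihood F test with Benjamini-Hochberg adjustment over all genes tested, at 0.05. The 5 batch 1 libraries were fitted alone (3 residual degrees of freedom, or 2 with 3 groups), and the differences between batches as contrasts over 14 libraries (8 residual degrees of freedom). Standard errors are those implied by the F statistic. The steps were tested on simulated data with known changes. CPM values were computed from the counts. DESeq2 1.42.0, limma 3.58.1, RLE scaling, no filter, 9 groups by batch, a replicate block, thinning to the shallowest library and omission of each library were alternatives. A gene with no count in an arm was set against 3 counts over that arm.

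The members and the 35 gene lists were chosen with earlier results of these data known. Genes named were those past the threshold with at least 5 CPM in either arm: the 12 largest rises and 12 largest falls, 2 of each list in each direction, the 4 largest each way between supernatants, the 6 largest each way between batches, and a fixed panel. Other list members are given for their lists and were picked after their values were seen. Replicate numbers 1 and 4 occur in both mast cell and untreated groups, but no label ties them to a shared source. Sequences are from RefSeq, GRCm38.p6. Intervals cover counting error only.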

Additional observations from a re-analysis of the deposited data

Results flagged for a closer look

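The response to supernatant differed between batch 1 and batch 2 in 91 genes and between batch 1 and batch 3 in 1121 genes, in a test of the difference itself (edgeR quasi-likelihood test, adjusted p under 0.05). Values below are differences in log2 response, batch 1 minus the other batch.

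Against batch 2 the larger responses of batch 1 were those of Edn1 (5.29), Arc (4.22), Gem (2.61), Dusp2 (2.09), Socs3 (2.09) and Gadd45b (1.86), together with the panel genes Dusp1 (1.36), Nfkbiz (1.33) and Nfkbia (1.14). The more negative ones were those of Cnr2 (-1.43), Zfp329 (-1.22), 6430548M08Rik (-0.81), B430306N03Rik (-0.76) and Neat1 (-0.62).

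Against batch 3 the largest positive differences were those of Edn1 (6.96), Nr4a3 (5.81), Egr3 (5.59), Ccl7 (5.32), Nr4a2 (5.30) and Spry1 (5.22). Chemokines and cytokines of the panel followed, with Cxcl1 at 5.15, Cxcl2 at 4.35, Ccl4 at 4.35, Ccl3 at 4.19, Ccl2 at 4.02, Il1b at 3.52, Cxcl3 at 3.41 and Tnf at 2.85. Nr4a1 differed by 5.05, Ptgs2 by 3.86, Socs3 by 2.95, Egr1 by 2.87, Nfkbiz by 2.13, Tnfaip3 by 2.01, Dusp1 by 1.95, Nfkbia by 1.60 and Mertk by 0.70. Negative differences were those of Cnr2 (-2.01), Tfap4 (-1.90), Cdca7 (-1.72), Scd2 (-1.68), Rab19 (-1.64) and F630028O10Rik (-1.44).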

How the results depend on the processing

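The count of batch 1 genes that passed, 1783, was 1397 to 2361 under RLE scaling, no filter, DESeq2, limma-voom, thinning to the shallowest library (chosen after seeing the data) and each supernatant alone, and 1012 with the spread of all 14 libraries. It ranged from 602 to 2348 with 1 library left out. With DESeq2 67.1% of calls were rises, against 57.2%. The count for trap minus mast cell supernatant, 134, was 281 with no filter, 51 with DESeq2, 30 with the spread of all 14 libraries and 156 to 1453 with 1 library left out. For batch 1 minus batch 2, 91 became 607 with no filter, 232 with DESeq2, 438 with 9 groups by batch and 10 to 223 with 1 library left out. For batch 1 minus batch 3, 1121 became 1122 to 1634 under other settings and 501 to 1560 with 1 library left out. With a replicate block on numbers 1 and 4, 2177 genes passed in batch 1 and 231 for trap minus mast cell supernatant. The difference between replicates 1 and 4 had a Pearson r of 0.00289 across genes between mast cell and untreated libraries. This value cannot settle whether the numbers pair samples, since the 2 untreated libraries differed little (chi-square per degree of freedom 1.77). No block was possible for the batch differences because numbers are not shared across batches. For batch 1 minus batch 3, the sign of Cpa3, which had no untreated count in batch 1, turned without trap supernatant replicate 3 (range with 1 library left out -0.8205 to 1.378), and that of Il1a turned without untreated replicate 3 (-1.295 to 3.634). The cause of these shifts was not tested. Depth of 12029866 to 22720419 counts limits statements on genes with few counts.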
